A study of Mus musculus with 5 samples.

Results

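Mt1 and Mt2 encode the metallothioneins, small cysteine-rich proteins of the cytosol that hold zinc and copper and also bind cadmium. They were taken by symbol from the gene names deposited with the count matrices, as 2 of 27998 genes, and were chosen by their levels between gates: earlier results of the same data had shown both far higher in megakaryocyte/erythroid progenitors than in other gates. Their levels between gates are therefore given as a description. The study profiled single cells of wild type C57BL/6 mouse bone marrow, isolated by flow cytometry as 4 gates of lineage-negative, KIT-positive progenitors. The gates were LSK (Lin-SCA1+KIT+, which holds stem and multipotent cells), CMP (common myeloid progenitors, Lin-KIT+SCA1-CD34+CD16/32-), GMP (granulocyte/monocyte progenitors, Lin-KIT+SCA1-CD34+CD16/32+) and MEP (megakaryocyte/erythroid progenitors, Lin-KIT+SCA1-CD34-CD16/32-). The mice were healthy controls; the sources used here do not give their age and sex or how many were pooled per library. Each gate had 1 library, since the files of the 2 CMP samples were identical and were counted once.

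Metallothionein transcription is switched on by zinc and cadmium through MTF1, a zinc-sensing transcription factor that binds metal response elements in the promoters. Glucocorticoids and oxidative stress also raise it. The proteins buffer free zinc, bind copper and scavenge reactive oxygen species, and red cell precursors are known to use much zinc and iron for carbonic anhydrases and haem synthesis. Mt1 and Mt2 are widely expressed neighbours that are usually induced together, Mt3 is best known from the brain and Mt4 from stratified epithelium.

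Both genes lie in the metallothionein cluster on the plus strand of mouse chromosome 8. In the GRCm38 build (GENCODE M21), Mt2 (ENSMUSG00000031762) spans chr8:94172664-94173568 and Mt1 (ENSMUSG00000031765) spans chr8:94179082-94180327, with 5513 bases between them. The principal transcript of each, Mt1-201 and Mt2-201, has 3 exons. Their annotated transcripts shared no stretch as long as the 98-base insert read, and the longest shared run was 20 bases. Windows around the RefSeq start sites (GRCm38.p6, plus strand, 250 bases before the site to 30 bases from it on) are shown because both genes are high in the same gate and only Mt1 is high in another. Capitals mark each match to TGCACNC or TGCGCNC, the core letters of the metal response element, on either strand, with no overlapping matches. The Mt1 window is chr8:94178839-94179118 and the Mt2 window is chr8:94172368-94172647.
Mt1: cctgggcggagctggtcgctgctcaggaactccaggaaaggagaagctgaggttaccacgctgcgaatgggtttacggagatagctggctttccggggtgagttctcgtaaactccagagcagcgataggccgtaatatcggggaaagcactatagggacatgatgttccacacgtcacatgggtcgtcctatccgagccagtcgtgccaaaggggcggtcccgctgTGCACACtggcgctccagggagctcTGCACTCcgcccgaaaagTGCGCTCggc
Mt2: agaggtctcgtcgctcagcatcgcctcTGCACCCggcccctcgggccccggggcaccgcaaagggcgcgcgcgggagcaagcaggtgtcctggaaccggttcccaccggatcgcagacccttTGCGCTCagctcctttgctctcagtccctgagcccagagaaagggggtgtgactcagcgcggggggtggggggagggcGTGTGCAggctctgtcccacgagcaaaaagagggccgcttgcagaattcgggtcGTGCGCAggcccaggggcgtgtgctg

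The Mt1 window held 3 matches, at -23, 3 and 21 counted from the start site as 1. The Mt2 window held 4, at -223, -128, -50 and 5. Of 32851 windows of this length around RefSeq start sites, 24.1% held at least 1 match, 1.13% at least 3 and 0.225% at least 4. The Mt3 window held 0 matches and the Mt4 window 1. A match describes the letters only, and bases outside the windows were not searched. The RefSeq start of Mt2 lies upstream of the GENCODE start and that of Mt1 downstream of it, so the positions and counts depend on the start site used.

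The measurements were counts of unique molecular identifiers (UMIs), 1 per captured RNA molecule, from the 3' ends of transcripts. After filters on genes and mitochondrial UMIs, 10870 LSK, 3713 CMP, 8027 GMP and 6284 MEP cells remained, with medians of 5991.5, 6904, 9100 and 12578 UMIs per cell and library totals from 26919088 to 80273121 UMIs. Levels are UMIs per 1000000 UMIs of the library (CPM). With 1 library per gate no test was possible, and all intervals are 95% intervals that cover counting error only. The gates carried their own marker genes: Ly6a, which encodes SCA1, was at 78.2 CPM in LSK and at most 1.49 CPM elsewhere. Elane, a granule protease, reached 12374 CPM in GMP, and Car1, a carbonic anhydrase of red cell precursors, 4513 CPM in MEP. Libraries shared 36 to 130 cell barcodes with each other, 0.907% to 1.62% of the smaller library of a pair.

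Mt1 had UMIs in cells of all 4 gates, with a level that was higher at each step from LSK through CMP and GMP to MEP. Its level was 23.6 CPM (22.6 to 24.8, 1777 UMIs) in LSK and 81.1 CPM (77.8 to 84.6, 2184 UMIs) in CMP. It was 285 CPM (282 to 289, 20940 UMIs) in GMP and 747 CPM (741 to 753, 59973 UMIs) in MEP. No neighbouring gates in this order had overlapping intervals. Ranked among all genes by level, Mt1 was number 192 in MEP, 522 in GMP, 1719 in CMP and 5013 in LSK.

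Mt2 followed another order and was at a high level in MEP only. It was at 4.04 CPM (3.6 to 4.53, 304 UMIs) in LSK, 1.04 CPM (0.691 to 1.5, 28 UMIs) in CMP and 0.668 CPM (0.494 to 0.883, 49 UMIs) in GMP. In MEP it reached 431 CPM (427 to 436, 34626 UMIs), the 337th highest level of any gene there. The intervals of CMP and GMP overlapped, while those of LSK and MEP stood apart from each other and from both. GMP thus combined the second highest Mt1 level with the lowest Mt2 level of the 4 libraries.

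**Figure D1:**
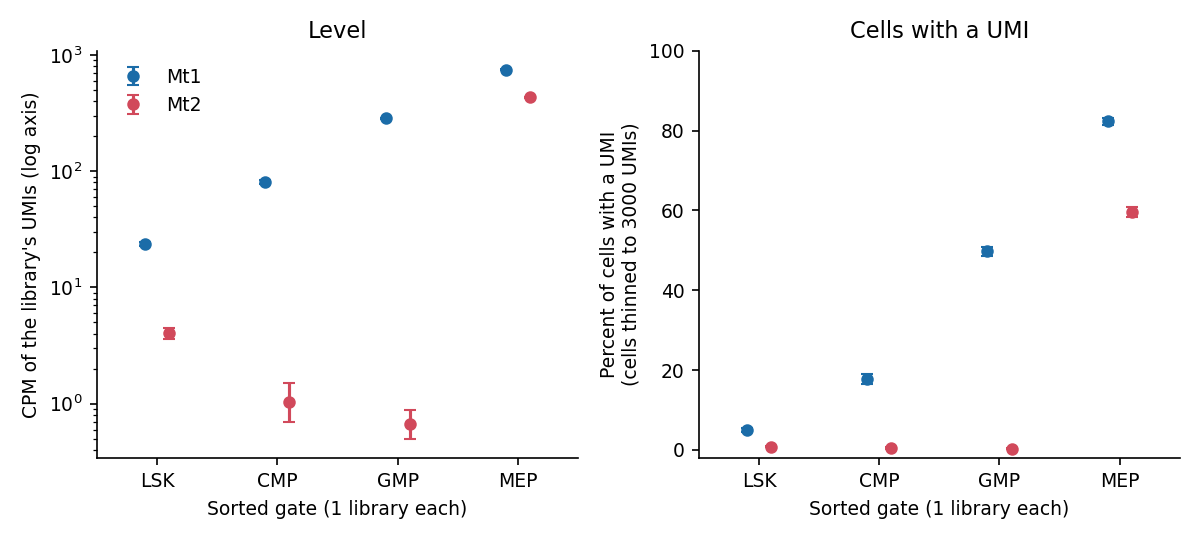
Level of Mt1 and Mt2 in CPM on a log axis (left) and percent of cells with a UMI after each cell was thinned to 3000 UMIs (right), by sorted gate with 1 library each; bars are 95% intervals for counting error. Mt1 stepped up from 23.6 CPM in LSK to 747 CPM in MEP, while Mt2 lay between 0.668 and 4.04 CPM outside MEP and at 431 CPM within it.

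Between MEP and the other gates, Mt2 showed the larger ratio in every contrast. Mt1 was 31.6-fold higher in MEP than in LSK (log2 ratio 4.98, 4.91 to 5.05), and Mt2 was 107-fold higher (6.74, 6.57 to 6.90). A gene counted as higher where it had 50 CPM or more in the higher library and a ratio of 2 or more, and 13.5% of the 3350 genes at that level were higher in MEP than in LSK. Against CMP, Mt1 was 9.21-fold higher in MEP (log2 ratio 3.20, 3.14 to 3.27) and Mt2 415-fold higher (8.70, 8.16 to 9.29), in a contrast where 10.5% of 3104 genes were higher in MEP. Against GMP, Mt1 was 2.62-fold higher (log2 ratio 1.39, 1.37 to 1.41) and Mt2 646-fold higher (9.33, 8.93 to 9.77), with 12.1% of 3066 genes higher in MEP. Both genes belonged to these groups by the way they were chosen. Ranked by ratio, Mt2 was 18th against LSK, 4th against CMP and 21st against GMP, and Mt1 was 30th, 55th and 216th.

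Among the gates other than MEP, Mt1 was lowest in LSK while Mt2 was at a low level in all. Mt1 was lower in LSK than in CMP by a log2 ratio of -1.78 (-1.87 to -1.69) and counted as higher in CMP, as did 2.72% of 3056 genes, with 6.12% higher in LSK. It was lower in LSK than in GMP by -3.59 (-3.66 to -3.52), where 7.49% of 3149 genes were higher in GMP and 13.3% in LSK. It was lower in CMP than in GMP by -1.81 (-1.88 to -1.75), where 2.92% of 2804 genes were higher in GMP and 4.03% in CMP. Mt2 had a positive log2 ratio for LSK over CMP (1.96) and for LSK over GMP (2.60), but it was under 50 CPM in all 3 libraries and so met no rule. For CMP over GMP its ratio was 0.64 (-0.09 to 1.34), an interval that includes no difference. Without the 1% of cells with the most Mt1 and Mt2, the Mt2 ratios were 0.66 for LSK over CMP, 1.003 for LSK over GMP and 0.34 for CMP over GMP. Those cells were picked by the same genes, in CMP and GMP mostly by Mt1. The drop therefore does not show how far the excess in LSK rests on few cells. Without only the 7 LSK cells with 20 or more Mt1 and Mt2 UMIs, Mt2 in LSK was at 2.76 CPM, beside 1.04 CPM in CMP and 0.668 CPM in GMP.

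Scaling affected all genes together. With median-of-ratios or TMM factors in place of the library total, the median of all genes moved by 0.52 or 0.44 (log2) for MEP over LSK, by 0.14 or 0.12 for MEP over CMP and by -0.02 or -0.01 for MEP over GMP. The moves were -0.38 or -0.31 for LSK over CMP, -0.54 or -0.45 for LSK over GMP and -0.16 or -0.13 for CMP over GMP. Of the genes past the rule, the share higher in MEP went from 45.2% to 79.8% or 76.1% against LSK and from 48.2% to 59.5% or 58.0% against CMP. The share higher in LSK went from 69.3% to 20.3% or 25.3% against CMP and from 64.0% to 18.0% or 24.1% against GMP, and the share higher in CMP against GMP went from 57.9% to 43.5% or 46.1%. Mt1 and Mt2 kept the sign of each MEP contrast under both scalings.

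The balance of the pair differed widely between gates. For each Mt2 UMI there were 1.73 Mt1 UMIs (1.71 to 1.76) in MEP, 5.85 (5.17 to 6.62) in LSK, 78 (53.8 to 118) in CMP and 427 (323 to 578) in GMP. MEP had the most even pair and GMP the most one-sided one, with no overlap of intervals between any gates. Without the 1% of cells with the most of both, the order was the same, with 1.74 Mt1 UMIs per Mt2 UMI in MEP, 13.2 in LSK, 99.4 in CMP and 469.8 in GMP.

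The other members of the cluster were nearly silent. Mt3 had 16 UMIs in LSK (0.213 CPM) and 0 in the other libraries, and Mt4 had 0 in all 4; with 3 counts as the floor, 0 UMIs allow up to 0.0374 CPM in MEP, 0.0409 in GMP and 0.111 in CMP for Mt3, and the same and 0.0399 in LSK for Mt4. Of the genes next to the cluster, Nup93, which encodes a nuclear pore protein, was at 23.3 CPM in LSK, 34.0 CPM in both CMP and GMP and 49.4 CPM in MEP. Bbs2, a component of the ciliary BBSome, stayed between 1.45 and 3.22 CPM. Slc12a3, a kidney salt transporter, was at most at 0.149 CPM and the long noncoding RNA Gm15889 had no UMI.

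The share of cells with a UMI followed the levels. Mt1 was seen in 94.6% of MEP cells, 76.3% of GMP, 31.1% of CMP and 9.22% of LSK cells. Because MEP cells were the deepest, each cell was also thinned to 3000 UMIs, which left out 734 LSK, 242 CMP, 167 GMP and 0 MEP cells. The shares were then 82.3% (81.4 to 83.3) in MEP, 49.8% (48.7 to 50.9) in GMP, 17.7% (16.4 to 19) in CMP and 4.92% (4.51 to 5.36) in LSK. Mt2 was seen in 82.9% of MEP cells, 1.32% of LSK, 0.673% of CMP and 0.561% of GMP cells. After thinning these shares were 59.6% (58.4 to 60.8), 0.789% (0.626 to 0.981), 0.432% (0.242 to 0.712) and 0.216% (0.126 to 0.346). As gauges of free RNA, unthinned, Elane was seen in 0.143% of MEP cells and Car1 in 0.199% of GMP cells, beside 0.561% with Mt2 in GMP. Other genes gave more: another granule protease, Prtn3, was seen in 9.50% of MEP cells and Car2 in 15.02% of GMP cells. Prtn3 and Car2 were also seen in 86.2% and 97.0% of LSK cells, so their shares cannot tell free RNA from low expression. In LSK, Elane was seen in 1.24% of cells, near the Mt2 share of 1.32%. No gauge was at hand for CMP, where both Elane (45.5%) and Car1 (10.7%) were common, so the Mt2 shares of LSK, CMP and GMP are not read as expression. In LSK barcodes outside cells, with 10 to 100 UMIs, Mt1 was at 68.2 CPM (32.7 to 125) from 10 UMIs and Mt2 at 6.82 CPM (0.173 to 38.0) from 1 UMI. In LSK barcodes with 101 to 500 UMIs they were at 23.7 CPM (21.6 to 26.0) and 4.20 CPM (3.33 to 5.24), intervals that include the levels of the LSK cells. The LSK level and share of Mt1 are therefore not read as expression either.

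Counted per cell without thinning, MEP cells, the deepest, held the most molecules. Of MEP cells, 31.1% held 20 or more Mt1 and Mt2 UMIs together (1953 cells), against 7 cells in LSK, 0 in CMP and 1 in GMP. No UMI of either gene was found in 3.47% of MEP, 23.7% of GMP, 68.7% of CMP and 90.3% of LSK cells. In MEP the median cell had 674 CPM of Mt1, with a 5th percentile of 0 and a 95th of 1338 CPM. The median was 330 CPM for Mt2 in MEP and 222 CPM for Mt1 in GMP, and 0 for Mt1 in CMP and LSK.

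**Figure D2:**
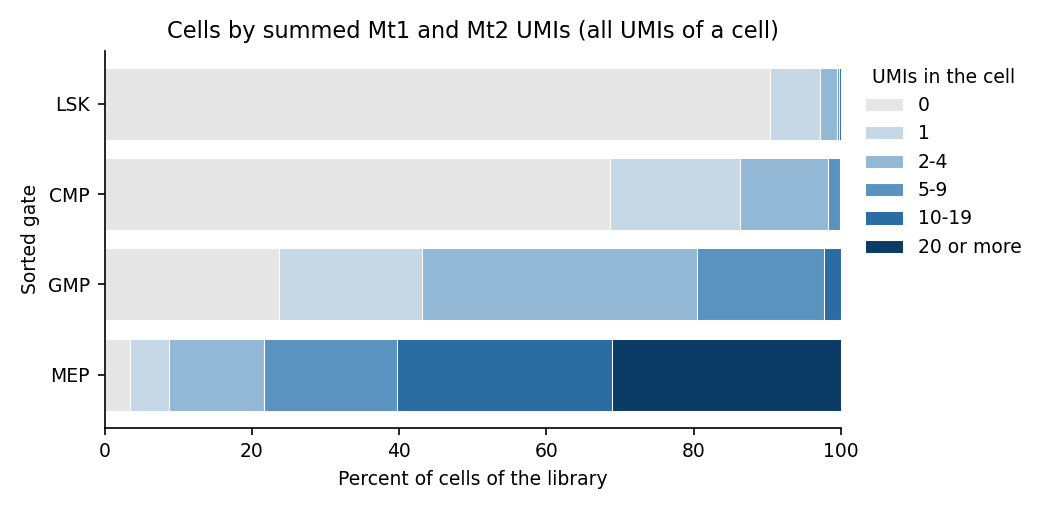
Percent of cells of each library (horizontal axis) by the number of Mt1 and Mt2 UMIs in the cell, summed and not thinned, with darker shades for more UMIs and 1 bar per gate. The palest shade, no UMI, covers 90.3% of LSK and 3.47% of MEP cells, and the darkest, 20 or more, covers 31.1% of MEP cells.

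Both genes varied more between cells than most genes of like level. In MEP, the variance of thinned Mt2 UMIs was 1.52 times their mean, the 52nd highest of 2677 genes at 50 CPM or more and the 3rd of 178 genes of like level, whose median was 1.05. For Mt1 in MEP it was 1.33 (89th of 2677, and 6th of 85 genes of like level). Mt1 in GMP had 1.40 (86th of 2515, and 7th of 237 genes of like level) and in CMP 1.37 (173rd of 2613). The 10% of MEP cells with the most Mt1 held 26.3% of its UMIs, where the median gene of like level was at 24.8%, and for Mt2 34.7%, beside 30.6%.

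In LSK, a few cells held much of Mt2 and a smaller share of Mt1. The 7 LSK cells with 20 or more Mt1 and Mt2 UMIs had Mt1 at 1235 CPM and Mt2 at 704 CPM, and 6 of them held 5 or more Car1 UMIs, with Car1 at 5476 CPM and no Elane UMI, and none of the 7 was scored as a doublet, though their median depth was 24245 UMIs against 5988 in the other LSK cells. They held 31.9% of the Mt2 UMIs of LSK (97 of 304) and 9.57% of the Mt1 UMIs (170 of 1777). Leaving out the 1% of LSK cells with the most Mt1 and Mt2 took Mt1 from 23.6 to 15.6 CPM and Mt2 from 4.04 to 1.18 CPM, and the log2 ratio of MEP over LSK to 5.56 for Mt1 and 8.48 for Mt2. In the 39 LSK cells with 5 or more Car1 UMIs, Mt1 was at 491 CPM (429 to 560) and Mt2 at 233 CPM (191 to 281). In the 10681 LSK cells without Car1 they were at 20.7 CPM (19.7 to 21.8) and 2.65 CPM (2.29 to 3.05). Only 22 of the 39 cells had any Mt1 UMI and 11 any Mt2 UMI, and 6 of the cells with 20 or more Mt1 and Mt2 UMIs held 67.7% of the group's Mt1 and 85.0% of its Mt2. Without those 6 cells, the other 33 had 222 CPM of Mt1 and 48.7 CPM of Mt2. The part of free RNA or of cells from another gate in the LSK values was not tested.

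In CMP the same split gave a smaller difference. The 143 CMP cells with 5 or more Car1 UMIs had Mt1 at 127 CPM and Mt2 at 4.14 CPM from 3 UMIs, against 79.4 CPM and 0.964 CPM in the 3314 cells without Car1. In MEP, the 6002 cells with 5 or more Car1 UMIs had 756 CPM of Mt1 and 437 CPM of Mt2, and the 248 cells with 1 to 4 had 337 and 159 CPM. These groups also differed in depth, with medians of 12944.5 and 4658.5 UMIs per cell. Split by thinned UMIs of Sphk1, a sphingosine kinase of the erythroid markers, MEP cells with none (3960 cells) had 718 CPM of Mt1 and 400 CPM of Mt2. Cells with 1 or 2 (2184 cells) had 789 and 475 CPM, and cells with 3 or more (140 cells) had 769 and 472 CPM.

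Cells with both genes made up 81.0% of MEP, 0.865% of LSK, 0.523% of GMP and 0.404% of CMP. They numbered 5089, 94, 42 and 15, where independence within 10 equal groups of cells by depth would give 5031, 14.97, 36.6 and 9.23 cells. Within those depth groups, the odds of seeing Mt2 in a cell with Mt1 against a cell without were 2.48-fold in MEP, 20.8-fold in LSK, 3.32-fold in GMP and 2.80-fold in CMP. Over the 6284 MEP cells the Pearson correlation of the log values was 0.515, and 0.282 once each cell was thinned to 3000 UMIs. In LSK the values were 0.352 and 0.393 (10870 and 10136 cells), and in CMP and GMP all were under 0.1. The cells behind each value share 1 library, and the CMP and GMP counts are too sparse to read an association.

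The 4 libraries were clustered together without Mt1 and Mt2 and without the cells scored as doublets, and 18 clusters were found. Clusters were given a name ending in -like only from marker genes, and the others are described by their leading genes. A name went to the class with the most markers among the 10 leading genes. Levels are given only for clusters with 50 or more cells of a library, and cells in smaller groups were left out. By raised markers over the whole list, the lymphoid-primed-like cluster had 6 of its own and 7 of the HSC/multipotent list, and the dendritic-like cluster 6 of its own and 7 of the monocyte list. Within MEP, the erythroid-like cluster led by Kcng2 and Car1 had 853 CPM of Mt1 (843 to 863) and 477 CPM of Mt2 (470 to 485). The erythroid-like cluster led by the globins Hba-a1 and Hbb-bs had 706 CPM (696 to 716) and 474 CPM (466 to 483). The erythroid-like cluster led by Csrp3 and Trib2, shallower in depth, had 567 CPM (553 to 580) and 225 CPM (217 to 234). The 194 megakaryocyte-like MEP cells, led by Pf4 and Gp1bb, had 217 CPM (190 to 248) and 83.1 CPM (66.4 to 103). Among the clusters with 50 or more MEP cells, both genes were lowest there.

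Within GMP, Mt1 was high in every large cluster and Mt2 in none. An unnamed cluster led by Cebpe and Pglyrp1, both genes of the neutrophil lineage, had 358 CPM of Mt1 (350 to 367) and 1.16 CPM of Mt2 from 22 UMIs. The monocyte-like clusters had 308 and 239 CPM of Mt1 with 0.579 and 0.198 CPM of Mt2. The granulocyte-monocyte progenitor-like cluster, led by Hdc, Cpa3 and Prg2, genes also of basophils, mast cells and eosinophils, had 181 CPM of Mt1 (171 to 191). At resolution 2 the cells of that name, 1953 in number, had 312 CPM, and at 0.5 no GMP cluster had the name. In GMP, the basophil/mast-like cluster led by Prss34 had 86.8 CPM (72.3 to 103). In CMP, Mt1 was at 92.7 CPM in an unnamed cluster led by the chemokines Cxcl2 and Ccl4 and at 17.7 CPM (7.65 to 34.9) in the dendritic-like cluster. In CMP, Mt2 never had more than 15 UMIs in a cluster.

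Within LSK, among clusters with 50 or more of its cells at this resolution, the 56 megakaryocyte-like cells had the highest levels. They had 156 CPM of Mt1 (122 to 196) and 32.9 CPM of Mt2 (18.4 to 54.3). This order did not hold at Leiden resolution 2, where 968 LSK cells were megakaryocyte-like, with 44.6 CPM of Mt1 and 6.80 CPM of Mt2, beside 42.4 and 7.25 CPM in HSC/multipotent-like cells; at resolution 0.5 no LSK cluster had the name. An unnamed cluster led by Clec1a and Procr, the latter a marker of stem cells, had 41.1 CPM (38.0 to 44.4) and 6.34 CPM (5.15 to 7.73). An unnamed cluster led by Shisa8 and Basp1 had 21.3 and 2.48 CPM, and a cluster led by Fam64a and Dntt 11.7 and 1.53 CPM. The lymphoid-primed-like cluster, led by Wfdc17 and Dntt, had the lowest Mt1 of the clusters of that size at this resolution. It had 6.26 CPM of Mt1 (5.15 to 7.55) and 0.285 CPM of Mt2, and 9.42 CPM of Mt1 at resolution 0.5. These 5 LSK clusters had the same order in Mt1 and in Mt2. The part of free RNA in their levels was not tested.

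**Figure D3:**
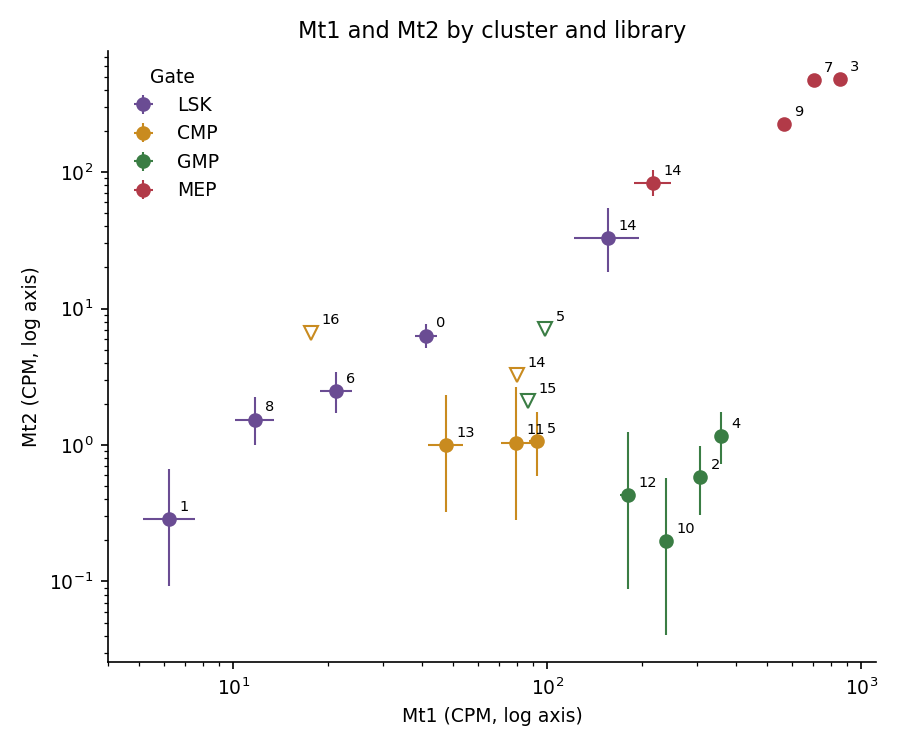
Mt1 (horizontal) against Mt2 (vertical) in CPM on log axes, 1 point for each cluster and library with 50 or more cells, numbered by cluster and coloured by gate; bars are 95% counting intervals and open triangles mark Mt2 counts under 3, drawn at the floor of 3 counts. LSK and MEP points run along 1 diagonal, and the 4 filled GMP points lie at 181 to 358 CPM of Mt1 with 0.198 to 1.16 CPM of Mt2.

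Along the erythroid markers, Mt1 and Mt2 behaved differently in MEP. Cells were put in 5 equal groups by the share of their UMIs in 13 erythroid marker genes. Mt1 was at 616, 790, 798, 777 and 705 CPM from the lowest to the highest group, so that it peaked in the middle. Mt2 was at 290, 417, 458, 464 and 464 CPM and levelled off. The lowest group was also the shallowest, with a median of 6525.5 UMIs per cell against 11772 to 14833 in the others. In LSK the share was mostly Car2, with 90939 UMIs and seen in 97.0% of cells, against 2599 UMIs for Hemgn, the next highest marker. The LSK groups are thus close to an order by Car2. In these groups Mt1 was at 12.4, 17.4, 19.3, 24.8 and 52.1 CPM and Mt2 at 0.668, 1.04, 1.89, 4.13 and 15.4 CPM. The share of LSK cells with Mt1, not thinned, differed far less than its level, at 7.77%, 9.25%, 9.29%, 9.06% and 10.7%. The share with Mt2 was 0.506%, 0.506%, 1.10%, 1.79% and 2.67%. Median depth fell over these groups, at 7439.5, 6755, 5994, 5538.5 and 4990 UMIs per cell, which bears on both shares. In the highest LSK group, 6 cells held 23.6% of the Mt1 and 47.6% of the Mt2 UMIs, and without them the levels were 40.2 and 8.13 CPM. Most GMP cells and part of the CMP cells had no UMI of any erythroid marker, so no order along the markers could be read there.

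**Figure D4:**
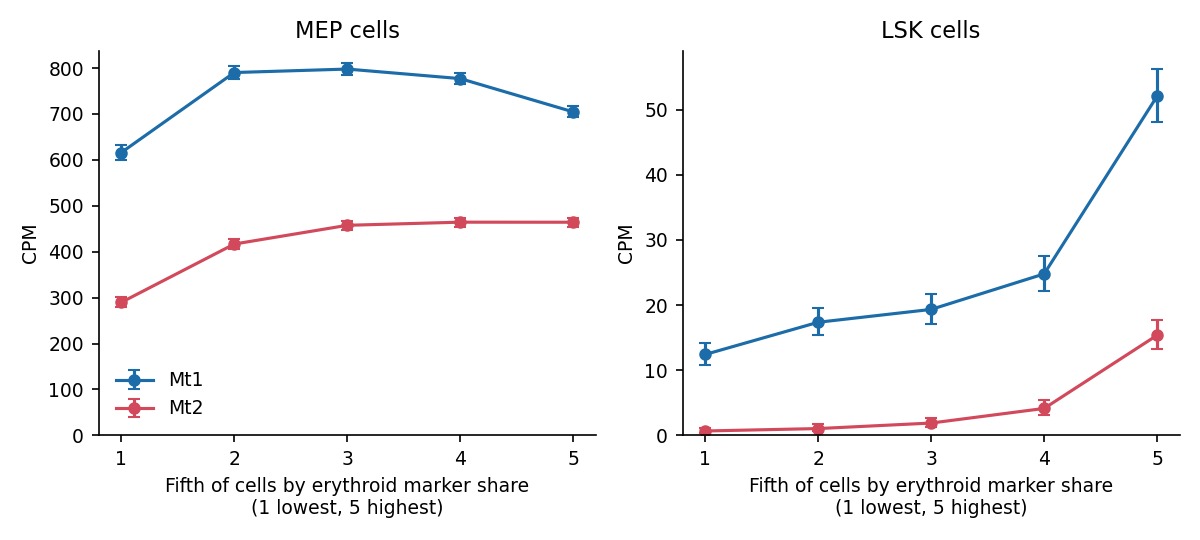
Mt1 and Mt2 level in CPM for 5 equal groups of cells in MEP (left) and LSK (right), with separate vertical axes from 0. Groups were ordered by the share of UMIs in erythroid marker genes, which in LSK were mostly Car2 UMIs. Bars are 95% counting intervals. In MEP Mt1 went from 616 to a peak of 798 CPM and back to 705 CPM while Mt2 levelled off at 464 CPM, and in LSK the highest group was at 52.1 and 15.4 CPM, of which 6 cells held 23.6% and 47.6% of the UMIs.

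By scored cell cycle phase, MEP cells in G1 had 535 CPM of Mt1 and 257 CPM of Mt2, cells in S 727 and 433 CPM and cells in G2/M 781 and 451 CPM. The median depth was 5755, 11662.5 and 15146 UMIs per cell in these phases. In LSK, Mt1 was at 24.6, 28.6 and 13.8 CPM, in CMP at 78.6, 99.5 and 53.8 CPM and in GMP at 260, 313 and 266 CPM in G1, S and G2/M. The highest phase was thus S in the other 3 libraries and G2/M in MEP.

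Over the 6284 MEP cells, the genes whose log values followed the sum of Mt1 and Mt2 most closely were Npm1 (Pearson correlation 0.468) and Ncl (0.429), both of ribosome assembly, and Hspe1 (0.454), a mitochondrial chaperonin. Fam132a, which encodes the secreted protein adipolin, had 0.433, Atp5g1, a subunit of the ATP synthase, 0.420, and Tomm5, of the outer membrane import complex, 0.408. Ran, Blvrb, Car2 and Nme1 had 0.388, 0.382, 0.376 and 0.371. The median over 2524 genes was 0.0904. Among the lowest were Malat1 (-0.525), Tmsb4x (-0.485), Jun (-0.454), Fos (-0.429) and Plac8 (-0.400). These cells share 1 library and differ in depth. Ranked by Spearman's rho of thinned UMIs, 8 of the 10 genes stayed among the first 10. Their rho values were lower than the Pearson correlations for each of the 10 genes, from 0.155 for Blvrb, then 17th, to 0.271 for Npm1.

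Over 20 points of cluster and library, 4231 genes were ranked by their correlation with the sum in log2(CPM + 1). The highest were Med8 (0.939), Mrpl41 (0.912), Glrx2 (0.911), Atp5g1 (0.897), Emc4 (0.893), Ndufs7 (0.892), Dnajc19 (0.889), Bola3 (0.885), Ebna1bp2 (0.882) and Mrpl22 (0.881). Mrpl41 and Mrpl22 are proteins of the mitochondrial ribosome and Ndufs7 is a subunit of respiratory complex I. Mt2 alone was closest to Paqr9 (0.967), Tspan8 (0.963), Aldh1a7 (0.959) and Spire1 (0.959), which were at 63.1, 56.8, 32.9 and 83.0 CPM in MEP and at most 2.14 CPM in the other libraries. The points share libraries and so are not independent.

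None of the genes of metal sensing and of zinc and copper transport met the rule in an MEP contrast, though some at low levels differed widely. Values are listed in the order LSK, CMP, GMP, MEP. Mtf1 was at 23.1, 26.7, 29.0 and 31.8 CPM. Slc30a1, a zinc exporter and known MTF1 target, was at 2.25, 2.19, 1.94 and 2.78 CPM, and Gclc, the catalytic subunit of the enzyme that starts glutathione synthesis, at 19.1, 14.3, 15.5 and 36.5 CPM. Of 10 zinc exporters and 14 zinc importers, none counted as higher or lower in MEP in any contrast, but all except Slc39a7 in GMP (50.95 CPM) were under 50 CPM and could not have. For those members whose 2 libraries averaged at least 1 CPM, the median log2 ratio of MEP over LSK was -0.06 for 6 exporters and -0.67 for 11 importers, where all genes at that level had -0.36. Over CMP it was 0.34 for 5 exporters and -0.07 for 10 importers, beside 0.01, and over GMP 0.32 for 5 and 0.01 for 10, beside 0.12. Of 11 copper handling genes 5 reached 50 CPM and none counted in either direction. Among those under 50 CPM, named after their values were seen, the copper pump Atp7b was at 0.372, 0.0371 (1 UMI), 0.109 and 14.8 CPM, 39.7-fold higher in MEP than in LSK. The copper transporter Slc31a2 was at 5.55, 8.66, 23.7 and 0.125 CPM, lowest in MEP. Among the members at the highest levels, the copper chaperone Atox1 was at 187, 279, 290 and 228 CPM and Sod1, the copper and zinc superoxide dismutase, at 115, 106, 93.6 and 147 CPM.

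The zinc enzymes of red cells and part of the iron genes counted as higher in MEP. Of 4 zinc enzymes, 3 counted as higher in MEP in each contrast: Car1, Car2 and Alad, the last an enzyme of haem synthesis at 64.7, 64.1, 42.8 and 306 CPM. Of 10 iron genes, 7 reached 50 CPM in each MEP contrast. Of these, 5 were higher in MEP than in LSK, 5 than in CMP and 6 than in GMP, and none were lower. Of all genes at 50 CPM, 13.5%, 10.5% and 12.1% were higher in MEP. Uncalled members include the mitochondrial iron importer Slc25a37, at 14.6, 11.3, 14.0 and 10.4 CPM, and Ftl1, a ferritin chain, at 2045, 1977, 3063 and 2414 CPM. Among the members higher in MEP in each contrast, Glrx5, of iron-sulphur cluster assembly, was at 136, 227, 227 and 818 CPM. Tfrc, the transferrin receptor and another of these, was at 7.53, 13.8, 17.5 and 90.0 CPM. Car1, Car2 and Tfrc are also erythroid markers, of which 12 of 13 counted as higher in MEP in each contrast.

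Genes of the glucocorticoid response were lower or uncalled in MEP, and stress genes split. Of 10 glucocorticoid response genes none were higher in MEP, and 3 were lower than in LSK, 2 than in CMP and 0 than in GMP. Only 4, 3 and 2 of them reached 50 CPM in these contrasts, and the others could not have counted. Of all genes at 50 CPM, 16.4% were lower in MEP than in LSK, 11.3% than in CMP and 12.2% than in GMP. Tsc22d3 was at 83.6, 38.4, 27.4 and 7.70 CPM and Dusp1 at 469, 160, 54.4 and 31.3 CPM. The receptor gene Nr3c1 was at 56.1, 45.0, 35.4 and 61.5 CPM. Of 10 genes of heat shock and cell dissociation, 7 reached 50 CPM against LSK, 7 against CMP and 6 against GMP. The chaperone genes Hsp90aa1 and Hsph1 were higher in MEP in each contrast, while 3 were lower than in LSK, 3 than in CMP and 2 than in GMP. The immediate early gene Fos was at 1957, 798, 204 and 99.2 CPM. Of 11 NRF2 targets, which answer oxidative stress, 5 reached 50 CPM against LSK, 5 against CMP and 4 against GMP. Of all genes at that level, 13.5%, 10.5% and 12.1% were higher in MEP. Among the targets, 1 was higher in MEP than in LSK and 2 than in CMP or GMP, too few to compare with those shares. They were Gclm at 124, 97.8, 79.5 and 490 CPM and, against CMP and GMP, Nfe2l2, which encodes NRF2 itself, at 70.3, 57.3, 55.3 and 139 CPM. Of 10 hypoxia genes, 1 reached 50 CPM in each MEP contrast, and it counted as lower in MEP. It was Ndrg1 against LSK and CMP and Ero1l against GMP, and the others could not have counted.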

How the data were processed

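The labels' protocols describe 10x Genomics single-cell 3' libraries read on a HiSeq. The values the authors deposited are whole-number UMI counts for each gene in each barcode, without normalization. Per the submitters' processing notes, the build was mm10 and the tools were Cell Ranger 2.0.0, Seurat 2.3.0 and CASAVA 1.8.2; how the authors filtered cells is not given in the sources used here. The LSK matrix holds 737280 barcodes, of which those with 2110 or more UMIs (10883) were taken as cells; the stated 12185 CMP cells beyond the 3738 in the files were not analysed here.

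Kept cells had at least 500 genes and no more than 10% of UMIs from mitochondrial genes. Counts were summed per library and divided by its total; the floor was 3 counts. Sums have exact Poisson, ratios exact conditional binomial and shares exact Clopper-Pearson intervals, at 95%, which cover counting error only. Levels, ratios and shares used all kept cells. For clusters and phases, the cells with the highest doublet scores (0.8% per 1000 cells) were left out; scanpy 1.11.5 gave 2000 variable genes, 30 components, 15 neighbours and Leiden resolution 1. Alternatives were median-of-ratios and TMM factors (edgeR 4.0.16), other filters, depths, resolutions and groups. The ratio rule was also run on simulated data in which 200 of 27998 genes, all at 50 CPM or more, were changed 3-fold. It recovered 100% of them with 0 others in each contrast. The simulation held counting noise only, and as many genes were raised in one library as in the other. It therefore does not test variation between libraries or the choice of scaling.

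Mt1, Mt2 and the gene lists were chosen with earlier results of these data known. Named genes were the metallothioneins, Mtf1, their neighbours, members of each list among its 5 highest, and the 10 genes most like the sum of Mt1 and Mt2. The lowest correlations, the genes most like Mt2 alone, list members outside the 5 highest, and the splits by Car1, Sphk1 and UMI range (per cell and per barcode) were chosen after values were seen. Of the markers, Ighm, Trac and Iglc2 matched no symbol. Of 27998 gene IDs 27645 were in GENCODE M21.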

Additional observations from a re-analysis of the deposited data

Results flagged for a closer look

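Mt1 and Mt2 also had UMIs in LSK barcodes that were not taken as cells, which no comparison uses. In the 79868 barcodes with 101 to 500 UMIs, Mt1 was at 23.7 CPM (21.6 to 26.0, 446 UMIs) and Mt2 at 4.20 CPM (3.33 to 5.24, 79 UMIs), above what a count of 0 allows. In the LSK cells the levels were 23.6 and 4.04 CPM. Barcodes with 501 to 2109 UMIs had 19.7 CPM of Mt1 and 10.3 CPM of Mt2, and those with 1 to 9 UMIs 31.0 and 1.94 CPM.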

How the results depend on the processing

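No paired analysis was possible because each gate had 1 library, and for the same reason no replicate could be left out. Of 113 values under an alternative, 63 moved beyond their counting interval or by over 1.5 times. None of the log2 ratios among them changed sign, while the counts, shares and levels among them cannot. The Mt2 ratios between LSK, CMP and GMP were not among the 113. With median-of-ratios or TMM factors, the log2 ratio of Mt1 was 5.50 or 5.42 for MEP over LSK, 3.34 or 3.32 for MEP over CMP, -2.16 or -2.09 for LSK over CMP, -4.13 or -4.04 for LSK over GMP and -1.98 or -1.95 for CMP over GMP. That of Mt2 was 7.25 or 7.17 for MEP over LSK. Without the 1% of cells with the most Mt1 and Mt2, the Mt1 ratios were 5.56, 3.31, 1.41, -2.26, -4.15 and -1.90 for MEP over LSK, MEP over CMP, MEP over GMP, LSK over CMP, LSK over GMP and CMP over GMP, and the Mt2 ratio of MEP over LSK was 8.48. With the mean of the CPM of each cell, Mt1 had 1.29 for MEP over GMP and -1.89 for CMP over GMP, and Mt2 6.93 for MEP over LSK. Genes higher in MEP than in LSK numbered 452, and 1232 with median-of-ratios factors, 1082 with TMM, 736 at 10 CPM and 1238 with no minimum. At 10 CPM and with no minimum they numbered 791 and 1510 against CMP (327 at 50 CPM) and 916 and 2198 against GMP (370). Genes higher in CMP than in LSK numbered 83, and 282, 236, 160 and 739 in the order of those 4 settings, and genes higher in GMP than in LSK 236, and 817, 661, 407 and 1013. Genes higher in GMP than in CMP numbered 82, and 208 at 10 CPM and 665 with no minimum. The share of cells with Mt1 at full depth and thinned to 2000 UMIs was 9.22% and 3.39% in LSK, 31.1% and 12.8% in CMP, 76.3% and 38.8% in GMP and 94.6% and 70.4% in MEP. That with Mt2 was 1.32% and 0.432% in LSK and 82.9% and 47.2% in MEP, 0.136% in CMP at 2000 UMIs and 0.561% in GMP at full depth. At Leiden resolution 2, erythroid-like MEP cells had 801 CPM of Mt1 and 509 CPM of Mt2 and monocyte-like GMP cells 269 CPM of Mt1. Lymphoid-primed-like LSK cells had 9.42 CPM of Mt1 at resolution 0.5 and 9.02 CPM at 2. With 3 erythroid marker groups in place of 5, the log2 ratio of the highest over the lowest was 0.066 (0.19 with 5) for Mt1 and 0.44 (0.68) for Mt2 in MEP, and 1.52 (2.07) and 3.53 (4.52) in LSK. Apart from changes that follow from the construction of a setting, the cause was not tested.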
